A study of Mus musculus with 10 samples.

Results

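Imprinted genes are described here in cultured and freshly sorted spermatogonia of the mouse. The list held 39 genes known to be imprinted in mouse, 22 expressed from the paternal allele, 16 from the maternal allele, and Gnas, whose transcripts differ in the allele they come from. A gene was found when a non-control probe on the array carried its symbol, and its brightest probe over all arrays was read. This gave 38 of the 39 genes (22 paternally expressed, 15 maternally expressed and Gnas), out of 34821 gene and region names on the array. No probe carried the symbol Rian, which was not analysed here.

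Genomic imprinting marks a gene by DNA methylation laid down in the germ line of the parent, so that in the offspring only the maternal or only the paternal copy is transcribed. Imprinted genes lie in clusters in which a single control region often governs several genes and in which a long noncoding RNA is commonly made from the allele opposite to that of its protein-coding neighbours. In the male germ line the marks of both parents are erased before birth and the paternal pattern is established in prospermatogonia, so that spermatogonia carry it on both copies. The arrays measured the amount of RNA and say nothing of the allele it came from.

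The study asked how FGF5, a growth factor made in the testis, acts on spermatogonia that carry GFRα1, the receptor of GDNF. GS cells (a culture of spermatogonia that keeps stem cell activity, labelled C57BL/6 and wild type, and made per the methods from a cross of C57BL/6 with ICR) were given 100 ng/mL FGF5 or none for 24 hr, after 3 days in which FGF2 and GDNF were withdrawn, with 2 arrays each. GFP+ cells were sorted from testes of C57BL/6 mice of 2.5 months that carried the Gfrα1-GFP knock-in allele, with 3 arrays labelled WT and 3 labelled Fgf5-/- (the go-moja allele). Each array was hybridised with RNA of 1 sample in 1 colour, Cy3, made from 25 ng of total RNA.

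Levels are given as log2 of the spot signal minus the 75th percentile of the signals on the same array, so that 0 is the level of a fairly bright spot. The 75th percentile itself lay between 575 and 650 signal units on the cultured arrays and between 794 and 1091 on the sorted arrays. The scanner software called 55.3% to 65.9% of the probes as well above background, depending on the array. Precision is limited by how few arrays there are. The cultured arrays were on 1 slide and the sorted arrays on another, so slide and material cannot be told apart, and every difference between cultured and sorted cells is a difference between these 2 sets of arrays. Fewer cells of a type and less RNA per cell cannot be told apart in such bulk samples.

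Fgf5 was read first in the sorted cells. On the 3 arrays labelled WT its probe gave -5.47, -6.59 and -6.66, and on the 3 labelled Fgf5-/- it gave -3.42, -6.83 and -6.90. It was well above background on 1 of these 6 arrays, the array labelled Fgf5-/- replicate 1. The signal thus did not separate the labels. The study reported that Fgf5 RNA was undetectable in GFRα1+ cells, so a signal near background under either label was no check of the genotype. Where the probe lies relative to the mutated part of the gene was not determined here either, so the genotype is taken from the labels alone.

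The germ cell label was checked on 11 genes of spermatogonia, among them Ddx4, Dazl, Zbtb16 and Nanos2, all of which were well above background on all arrays. Their summed level, on a linear scale relative to the 75th percentile, was between 182 and 188 on the cultured arrays and between 192 and 230 on the sorted arrays, and the probe of Zbtb16 was the brightest in both. Brightness depends on the probe as well as on the RNA, so that the brightest probe of a list does not show its most abundant gene. In the limma fit of cultured against sorted cells, at an adjusted p of 0.05, 2 of the 11 genes were higher and 6 lower in culture (72.7% passed, against 68.5% of all probes), with a median log2 difference of -0.84. Among those lower in culture were Etv5 (11.3-fold, adjusted p = 3.04e-05, limma), a transcription factor that acts downstream of GDNF, and the GDNF receptor genes Gfra1 (8.08-fold, adjusted p = 0.000403, limma) and Ret (4.31-fold, adjusted p = 4.13e-05, limma). Gfra1 is also the locus whose GFP allele was used to sort the cells, so that its level in them is not independent of the sort. These means pool cultures with and without FGF5, which lay far apart for some genes of the list. Etv5 gave 3.05 and 4.32 with FGF5 and 0.51 and -0.99 without it (log2 difference 3.92, unadjusted p = 0.00256, adjusted p = 1, limma). Ret gave -0.21 and 0.91 against -1.30 and -0.89, and Gfra1, whose arrays overlapped, gave -2.52 and -0.52 against -4.07 and -2.09. Of the 11 genes, 3 had an unadjusted p under 0.05 in that comparison and 0 passed (limma). Of the Sertoli cell genes, Amh and Fshr were well above background on no array, as were Cyp11a1 and Lhcgr of Leydig cells and Lyz2 and C1qc of macrophages. Other genes of these lists were well above background on every array of a material, 6 of 10 Sertoli cell genes in culture and 7 in sorted cells, 2 of 5 Leydig cell genes in each and 4 of 7 macrophage genes in each. Insl3 and Tesmin had no probe by that name.

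Of the 38 imprinted genes, 29 were well above background on all arrays, 32 on every cultured array and 32 on every sorted array. Rtl1 and Slc22a3 were well above background on no array, and Zim1, a zinc finger gene next to Peg3, on 2 sorted arrays and no cultured one. These 3 genes were not tested. The rest of the text concerns the other 35.

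**Figure D1:**
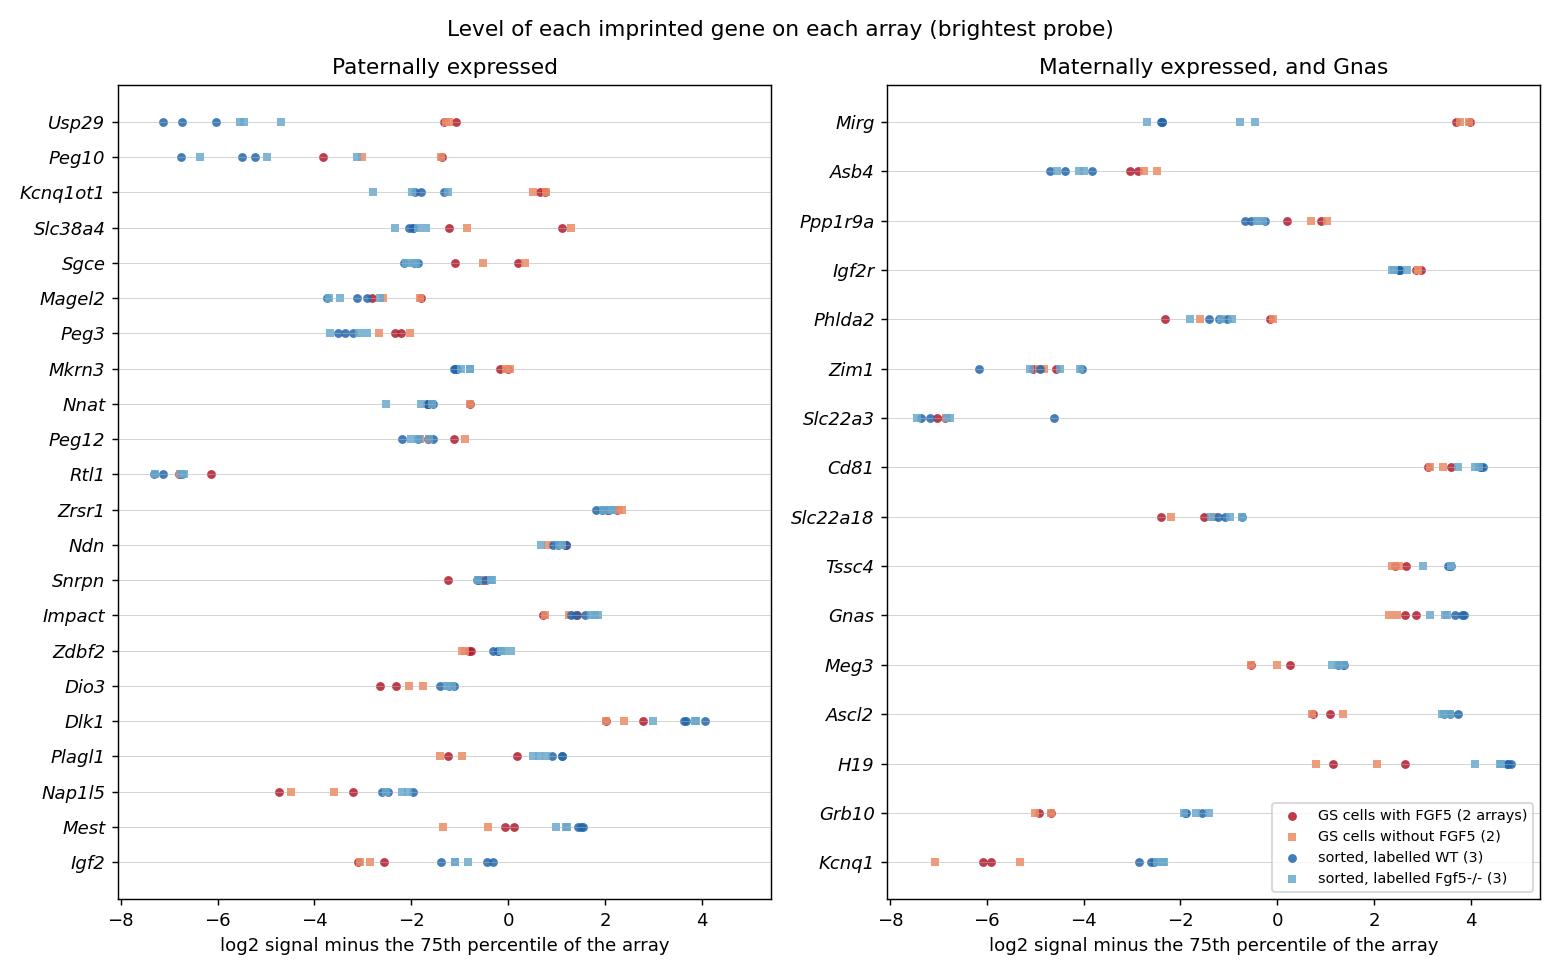
Level of the 38 imprinted genes on each of the 10 arrays (x axis, log2 signal minus the 75th percentile of the array), with paternally expressed genes on the left and maternally expressed genes and Gnas on the right, ordered by the difference between cultured and sorted cells. Each point is 1 array, red and orange for cultured and dark and light blue for sorted cells. Genes at the top of each panel lie higher in culture and those at the bottom lie higher in sorted cells, and Slc38a4, Peg10 and Phlda2 are spread widely within the culture.

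Cultured cells were set against sorted cells in a limma fit over all 10 arrays, with p-values adjusted by Benjamini-Hochberg over all 33900 probes tested. Most imprinted genes differed: 29 of the 35 tested passed an adjusted p of 0.05, of which 12 were higher and 17 lower in culture. Of all probes tested, 68.5% passed, 41.8% as higher and 26.7% as lower in culture, so that calls were common across the array. A difference of at least 4-fold was reached by 10 of the 35, against 8.24% of all probes, a share that includes probes with a bound only. The 35 include 6 genes (Usp29, Peg10, Asb4, Nap1l5, Grb10 and Kcnq1) that were well above background on every array of 1 material only, and which entered the test through that material. All 6 passed, and as they could enter only where they were high, their calls are no support for the counts. Of the other 29 genes, counted after the values were seen, 9 were higher and 14 lower in culture and 6 reached 4-fold.

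The 2 parental classes were read apart. Of the 21 paternally expressed genes tested, 8 were higher and 8 lower in culture, with a median log2 difference of 0.22. By the mean of all tested probes of a gene, fewer than 8 were lower, as given with the processing. Of the 13 maternally expressed genes, 4 were higher and 8 lower, with a median of -0.83. Each class holds 3 of the 6 genes with a bound, and without these, counted after the values were seen, 6 of 18 paternally expressed genes were higher and 7 lower (median 0.14), and 3 of 10 maternally expressed genes were higher and 6 lower (median -0.81). The median over all tested probes was 0.23 by the 75th percentile, and 0.12 by quantile normalization, 0.36 by the 75th percentile of bright probes and 0.08 by normexp with quantile normalization, so small differences depend on the scaling. Whether the classes differ from each other was not tested.

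**Figure D2:**
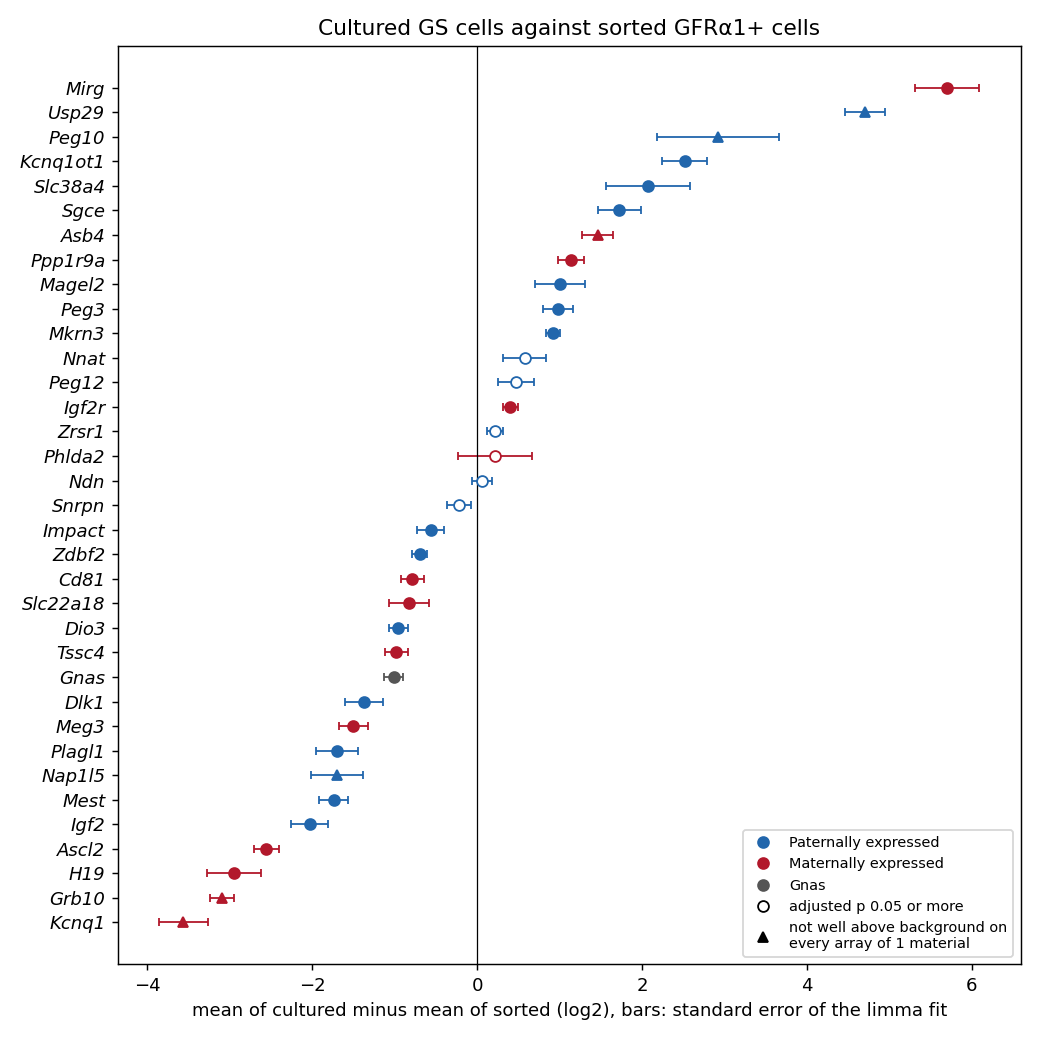
Difference between the mean of cultured and the mean of sorted cells for the 35 genes tested (x axis, log2), with the standard error of the limma fit as bars. Blue marks paternally and red maternally expressed genes. Open symbols did not pass an adjusted p of 0.05, and triangles were not well above background on every array of 1 material. Of the genes well above background on all arrays, Mirg lies farthest to the right at 5.70 and H19 farthest to the left at -2.94, while triangles are shown at the fitted difference, have only a bound and have no order.

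Igf2 and H19 on distal chromosome 7 were both higher in sorted cells. Igf2 encodes a growth factor of the fetus and is expressed from the paternal copy. Its probe gave -2.55 and -3.10 with FGF5 and -2.86 and -3.06 without it, and on the 6 sorted arrays it ranged from -1.40 to -0.32 with a median of -0.97. No cultured array reached the lowest sorted array, and the mean was 4.08-fold lower in culture (log2 difference -2.03, SE 0.23, adjusted p = 8.2e-05, limma).

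H19, a maternally expressed long noncoding RNA that shares its control region with Igf2, gave 1.16 and 2.63 with FGF5 and 0.80 and 2.07 without it. The sorted arrays lay between 4.08 and 4.82, with a median of 4.68. All sorted arrays were above all cultured arrays, and the difference was 7.68-fold (log2 difference -2.94, SE 0.33, adjusted p = 8.37e-05, limma). Igf2 and H19, which are expressed from opposite alleles, thus both lay lower in culture.

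H19 was measured by 7 probes, and 6 of them were lower in culture, with log2 differences down to -2.96. The other probe went the opposite way: it was well above background on all 4 cultured arrays and on no sorted array, at least 1.64-fold higher in culture (adjusted p = 0.000178, limma). That probe entered the test only through the cultured arrays, so that it could be called only as higher there. Both kinds of H19 probe are printed to show which parts of the RNA were read. The bright probe lies at chr7:149761492-149761551 and the dim probe, nearer to the start of the gene, at chr7:149762417-149762476, both on the minus strand of mm9, the build of the files. No part of a probe sequence is marked by capitals.
H19, bright probe: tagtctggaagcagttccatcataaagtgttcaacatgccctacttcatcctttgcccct
H19, dim probe: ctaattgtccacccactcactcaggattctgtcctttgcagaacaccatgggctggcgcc

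Genes that act on IGF signalling were read next. Igf2r, whose product takes IGF2 out of circulation, is maternally expressed, and gave 2.86 and 2.96 with FGF5, 2.91 and 2.90 without it, and 2.36 to 2.67 on the sorted arrays with a median of 2.52. The cultured arrays were all above the sorted ones by a narrow margin, 1.32-fold in the mean (log2 difference 0.40, SE 0.10, adjusted p = 0.00496, limma). Grb10, an adaptor that restrains insulin and IGF receptor signalling, was well above background on no cultured array (-4.92, -4.68, -5.00 and -4.67) and on all 6 sorted arrays (-1.94 to -1.41, median -1.78). It was at least 8.28-fold lower in culture (adjusted p = 1.34e-06, limma), where "at least" sets the mean of the bright arrays against the dim arrays at the lowest signal well above background, or at the probe's own signal where that is higher. Plagl1, a zinc finger transcription factor that acts on the Igf2 and H19 locus, gave -1.24, 0.19, -1.40 and -0.95 in culture and 0.51 to 1.12 in sorted cells (median 0.84).

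Plagl1 was 3.24-fold lower in culture by its brightest probe (log2 difference -1.69, SE 0.25, adjusted p = 0.000418, limma). Of its 4 probes, 2 were lower in culture and 1 was higher, by 1.23 on the log2 scale (adjusted p = 4.83e-05, limma), while the remaining probe did not pass (log2 difference 0.81, adjusted p = 0.0511, limma). Of the 17 genes with at least 2 tested probes, H19 and Plagl1 were the 2 with probes called in both directions. The opposite call of H19 came from a probe that could be called only as higher in culture, whereas the probes of Plagl1 were well above background on all arrays.

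The IGF pathway beyond the imprinted genes was taken from a list of 14 genes. Of the 13 tested, 8 passed (61.5%, against 68.5% of all probes), 4 in each direction. Igf1, the growth factor closest to IGF2, was 2.51-fold higher in culture (adjusted p = 1.74e-05, limma), and Insr, the insulin receptor, 2.30-fold higher (adjusted p = 0.00128, limma). Igfbp4, an IGF binding protein, was 1.72-fold higher (adjusted p = 0.024, limma), a call that was lost under several settings. Igfbp5, also an IGF binding protein, was 4.44-fold lower in culture (adjusted p = 4.88e-05, limma), Igf2bp1, which binds Igf2 mRNA, 2.10-fold lower (adjusted p = 0.000163, limma), and Irs1, an adaptor of the insulin and IGF1 receptors, 1.63-fold lower (adjusted p = 0.0114, limma). The call of Irs1 was lost without the array with FGF5 numbered 1 (log2 difference -0.57) and with the FGF5-treated cultures against WT alone (-0.54).

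Further along distal chromosome 7, Kcnq1 was called lower in culture and its antisense RNA higher. Kcnq1 entered the test only through the sorted arrays, so that it could be called only as lower in culture. Kcnq1 encodes a potassium channel subunit and is maternally expressed in the embryo. Its probe was well above background on no cultured array (-6.07, -5.91, -7.08 and -5.31) and on all sorted arrays (-2.85 to -2.34, median -2.52), at least 5.16-fold lower in culture (adjusted p = 1.82e-05, limma). Kcnq1ot1, the noncoding RNA transcribed from within Kcnq1 on the paternal copy, gave 0.66 and 0.76 with FGF5, 0.77 and 0.50 without it, and -2.79 to -1.25 in sorted cells with a median of -1.86. It was 5.72-fold higher in culture with no overlap of arrays (log2 difference 2.52, SE 0.27, adjusted p = 7.39e-05, limma), and its other probe was at least 5.34-fold higher (adjusted p = 0.000755, limma), being well above background on 2 of 6 sorted arrays.

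The 2 probes of Kcnq1ot1 are shown because they read separate stretches of the same RNA. The dim probe entered the test only through the cultured arrays and could be called only as higher there, so its direction adds no support. They are at chr7:150440140-150440199 (bright) and chr7:150434020-150434079 (dim) on the minus strand of mm9.
Kcnq1ot1, bright probe: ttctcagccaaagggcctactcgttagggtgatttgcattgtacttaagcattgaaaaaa
Kcnq1ot1, dim probe: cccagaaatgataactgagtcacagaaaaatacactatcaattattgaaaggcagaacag

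Of the listed protein-coding genes around them, Ascl2, Tssc4, Cd81 and Slc22a18 were lower in culture and Phlda2 did not pass. Ascl2, a transcription factor of the placenta and of intestinal stem cells, gave 0.74, 1.09, 0.72 and 1.35 in culture and 3.41 to 3.73 in sorted cells (median 3.51), 5.87-fold lower in culture (log2 difference -2.55, SE 0.15, adjusted p = 3.57e-06, limma). Its cultured and sorted arrays did not overlap. Tssc4, Cd81 and the transporter gene Slc22a18 were 1.97-, 1.72- and 1.77-fold lower (adjusted p = 0.000311, 0.00101 and 0.0156, limma). Phlda2, a regulator of placental growth, did not pass (log2 difference 0.22, adjusted p = 0.682, limma), with cultured arrays at -0.16, -2.32, -0.09 and -1.61 on both sides of the sorted arrays. The 9 genes of this stretch span 926 kb by their probes, and of the 12 tested probes of other genes and regions inside it, 8 were higher and 4 lower in culture, against 41.8% and 26.7% of all probes. Among these others were the cell cycle inhibitor gene Cdkn1c, which was 2.47-fold lower in culture (adjusted p = 6.99e-05, limma), and Th, which encodes tyrosine hydroxylase, the insulin gene Ins2 and the tetraspanin gene Tspan32, which were 2.03-, 2.06- and 1.65-fold higher in culture (adjusted p = 5.32e-05, 0.002 and 0.00019, limma). Any probe of this stretch that entered the test through 1 material alone could be called in 1 direction only, and such probes were not counted apart.

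The Dlk1 and Dio3 domain on chromosome 12 holds paternally expressed protein-coding genes and maternally expressed noncoding RNAs. Dlk1, a membrane protein of the Notch ligand family, gave 2.03 and 2.79 with FGF5, 2.03 and 2.39 without it, and 3.00 to 4.06 in sorted cells (median 3.76). Meg3, the noncoding RNA next to it, gave -0.53, 0.26, -0.53 and 0.00 in culture and 1.13 to 1.38 in sorted cells (median 1.32). By these brightest probes both were lower in culture with no overlap, Dlk1 with the smaller difference (log2 difference -1.38, SE 0.23, adjusted p = 0.000795, limma) and Meg3 by 2.83-fold (log2 difference -1.50, SE 0.17, adjusted p = 0.000105, limma). Another probe of Meg3 went the opposite way without passing (log2 difference 0.59, adjusted p = 0.0862, limma). The remaining probe, well above background on 2 of 4 cultured arrays, was at least 1.585-fold lower with overlapping arrays (adjusted p = 0.0454, limma). It entered the test only through the sorted arrays and could be called only as lower in culture. Dio3, a deiodinase that inactivates thyroid hormone, was 1.94-fold lower (adjusted p = 0.000145, limma).

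Mirg, a maternally expressed host RNA of many microRNAs at the far side of the same domain, had the largest difference among the 29 genes well above background on all arrays. Its brightest probe gave 3.69 and 3.98 with FGF5 and 3.78 and 3.96 without it. The arrays labelled WT gave -2.37, -2.39 and -2.40, and those labelled Fgf5-/- gave -2.69, -0.45 and -0.77. The difference was 52.0-fold (log2 difference 5.70, SE 0.39, adjusted p = 7.59e-06, limma), and within the sorted cells 2 arrays stood above the other 4.

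The other 2 probes of Mirg went the opposite way without passing the test, with a log2 difference of -0.73 each (adjusted p = 0.0758 and 0.0786, limma). Beside the brightest probe, the array holds probes for an unnamed transcribed region. The probe at -111 bases from it was well above background on every cultured and on 1 sorted array, at least 2.14-fold higher in culture (adjusted p = 0.0162, limma), and the probe at -519 bases, on 5 of 6 sorted arrays, was at least 2-fold higher (adjusted p = 4.53e-05, limma). Both probes entered the test only through the cultured arrays and could be called only as higher there, so their direction adds no support. The probe between these, at -180 bases, was well above background on no array, as was one at 455 bases on the opposite strand, and neither was tested. The value of Mirg therefore rests on a single 60-base probe that no other probe matches in size. Its sequence is given with those of the other 2 probes so that it can be looked up, at chr12:110968992-110969051, chr12:110987569-110987628 and chr12:110979653-110979712 in this order, on the plus strand of mm9.
Mirg, brightest probe: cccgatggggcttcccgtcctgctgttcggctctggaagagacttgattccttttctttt
Mirg, next probe: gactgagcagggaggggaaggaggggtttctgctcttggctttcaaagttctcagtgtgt
Mirg, dimmest probe: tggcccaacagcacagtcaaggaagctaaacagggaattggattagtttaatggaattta

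**Figure D3:**
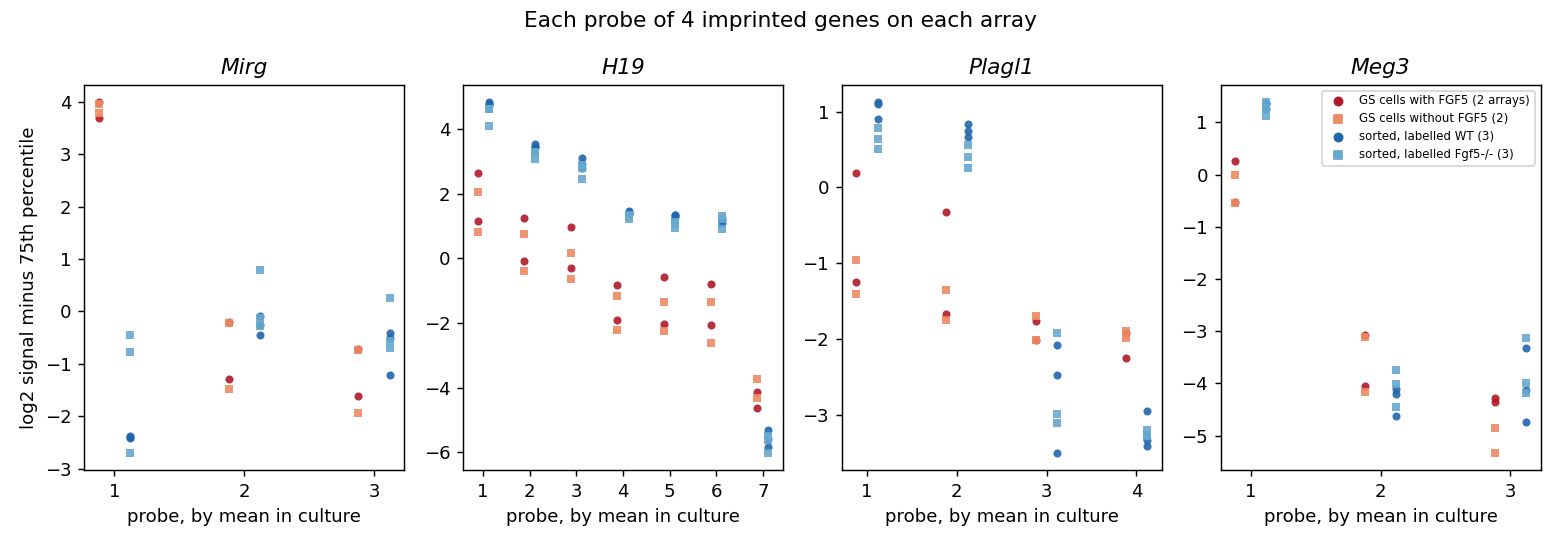
Each probe of Mirg, H19, Plagl1 and Meg3 on each array (y axis, log2 signal minus the 75th percentile), with probes ordered by their mean in culture. Each point is 1 array, cultured arrays to the left and sorted arrays to the right of each position. The brightest Mirg probe lies far higher in culture while the other 2 do not, 6 of 7 H19 probes lie higher in sorted cells, and the probes of Plagl1 split into 2 bright ones called higher in sorted cells and 2 dim ones, of which 1 was called lower there and the other did not pass.

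Zinc finger gene Peg3 and its neighbour Usp29 on proximal chromosome 7 were both higher in culture, Usp29 having entered the test only through the cultured arrays. Usp29, a member of the ubiquitin-specific protease family, gave -1.07 and -1.32 with FGF5 and -1.23 and -1.29 without it, and -7.13 to -4.70 in sorted cells (median -5.79), where 1 of 6 arrays was well above background. It was at least 11.9-fold higher in culture (adjusted p = 2.05e-06, limma). Peg3 gave -2.22 and -2.34 with FGF5, -2.03 and -2.66 without it, and -3.67 to -2.91 in sorted cells (median -3.29). Its cultured arrays were all above the sorted arrays, 1.98-fold in the mean (log2 difference 0.98, SE 0.18, adjusted p = 0.00148, limma).

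Peg3 and Usp29 are transcribed away from each other, and their promoter windows in RefSeq (250 bases before to 50 after the start, GRCm38.p6) share 263 bases. The window of Usp29 is printed up to its start, chr7:6730333-6730582 on the plus strand, together with that of Meg3, chr12:109540746-109541045 on the plus strand. Capitals mark TGCCGC on either strand, the letters bound by ZFP57 when methylated. They occur in the Meg3 window once and not in the stretch of Usp29 shown. Of the 38 genes, 32 had a promoter in the table, and 7 of them (21.9%) held the letters, against 11.6% of 27025 genes with 1 window each. The median number of CG pairs was 13 in these 32 windows and 7 over all genes. These are counts of letters only.
Usp29: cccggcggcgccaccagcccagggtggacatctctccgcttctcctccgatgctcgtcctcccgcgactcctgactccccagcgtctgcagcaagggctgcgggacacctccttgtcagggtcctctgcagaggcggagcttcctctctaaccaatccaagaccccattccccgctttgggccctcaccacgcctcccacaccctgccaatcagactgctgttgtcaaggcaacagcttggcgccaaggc
Meg3: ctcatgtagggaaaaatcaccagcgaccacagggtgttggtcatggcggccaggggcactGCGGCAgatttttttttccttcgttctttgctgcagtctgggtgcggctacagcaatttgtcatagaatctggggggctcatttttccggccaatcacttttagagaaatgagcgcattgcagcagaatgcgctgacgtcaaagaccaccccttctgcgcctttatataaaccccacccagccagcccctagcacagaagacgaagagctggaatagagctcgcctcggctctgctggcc

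Of the 4 listed genes of the proximal chromosome 6 cluster, Sgce and Ppp1r9a, measured on all arrays, were higher in culture, and Peg10 and Asb4 entered the test only through the cultured arrays, so that they could be called only as higher there. Peg10, a gene derived from a retrotransposon and needed in the placenta, gave -1.38 and -3.82 with FGF5, -1.38 and -3.02 without it, and -6.77 to -3.11 in sorted cells (median -5.36), where 2 of 6 arrays were well above background. It was at least 4.60-fold higher in culture (adjusted p = 0.00699, limma), although its cultured and sorted arrays overlapped, and without the 2 cultured arrays numbered 1 it did not pass. The other probe of Peg10, well above background on 1 of 6 sorted arrays, did not overlap and was at least 5.32-fold higher (adjusted p = 0.000302, limma). Sgce, a sarcoglycan that shares its promoter region with Peg10, was 3.30-fold higher (adjusted p = 0.000458, limma). The maternally expressed Ppp1r9a, which binds actin and protein phosphatase 1, was 2.20-fold higher by its brightest probe (adjusted p = 0.000275, limma). Its other probe went the opposite way without passing (log2 difference -0.25, adjusted p = 0.114, limma). Asb4 was at least 2.74-fold higher (adjusted p = 0.000191, limma). Of the 10 tested probes of other genes and regions within the cluster, 9 passed, all as higher in culture, where 41.8% of all probes were called higher. Probes that were well above background on every cultured array but not on every sorted array could be called only as higher. They were not counted apart, so these counts are no measure of direction.

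Slc38a4, an amino acid transporter, gave 1.12 and -1.22 with FGF5, 1.31 and -0.84 without it, and -2.34 to -1.69 in sorted cells (median -1.97). All cultured arrays were above all sorted arrays, 4.21-fold in the mean (log2 difference 2.07, SE 0.51, adjusted p = 0.00636, limma), a call that was lost with the FGF5-treated cultures against WT alone. Mest, an enzyme of the hydrolase fold family, gave -0.06, 0.11, -0.41 and -1.35 in culture and 0.98 to 1.54 in sorted cells (median 1.32). It was 3.33-fold lower in culture with no overlap (log2 difference -1.74, SE 0.17, adjusted p = 4.78e-05, limma), and all 3 of its probes were lower. The dimmest of these was well above background on 3 of the 4 cultured arrays. That probe entered the test only through the sorted arrays and could be called only as lower in culture.

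Of the 5 listed genes of the Prader-Willi cluster in central chromosome 7, 2 passed, both as higher in culture. Snrpn, whose product binds spliceosomal RNAs, gave -0.53, -1.24, -0.52 and -0.61 in culture and -0.64 to -0.34 in sorted cells (median -0.53). It did not pass (log2 difference -0.22, SE 0.15, adjusted p = 0.207, limma), nor did Ndn, with levels between 0.68 and 1.20 on all arrays, or Peg12. Magel2, a partner of ubiquitin ligases, and Mkrn3, a RING finger gene, were 2.01-fold (adjusted p = 0.0171, limma) and 1.89-fold (adjusted p = 4.36e-05, limma) higher in culture.

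Gnas, the alpha subunit of the stimulatory G protein, gave 2.63 and 2.86 with FGF5, 2.46 and 2.30 without it, and 3.15 to 3.86 in sorted cells (median 3.59). It was 2.02-fold lower in culture (log2 difference -1.01, SE 0.11, adjusted p = 8.56e-05, limma). All 4 Gnas probes were called lower in culture. One of them was well above background on 3 of 4 cultured arrays and at least 18.4-fold lower there (adjusted p = 1.24e-05, limma). Another was well above background on 1 of 4 cultured arrays and at least 2.44-fold lower (adjusted p = 0.000458, limma). Both of these entered the test only through the sorted arrays and could be called only as lower in culture.

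Genes that lay down or guard imprints were read from a list of 20, all of them tested, of which 9 were higher and 7 lower in culture (80.0% passed, against 68.5% of all probes). Dppa3, which protects methylation in the early embryo, gave 1.52, 1.08, 1.56 and 1.61 in culture and -4.13 to -3.69 in sorted cells (median -3.77), 39.4-fold higher in culture (adjusted p = 3.29e-08, limma). No array of either material came near the other. Tet2, an enzyme that oxidises methylcytosine, was 4.65-fold higher (adjusted p = 0.000194, limma), and Zfp57, which keeps imprints methylated, 2.93-fold higher (adjusted p = 3.05e-05, limma). Dnmt1, the maintenance methyltransferase, was 2.51-fold lower in culture (adjusted p = 2.21e-05, limma), Smchd1, a chromatin protein, 2.04-fold lower (adjusted p = 1.6e-05, limma), and Uhrf1, which guides DNMT1 to DNA, 1.82-fold lower (adjusted p = 0.000886, limma). The call of Uhrf1 was lost with the FGF5-treated cultures against WT alone (log2 difference -0.68).

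A list of 26 other imprinted genes, of which 24 were tested, had 11 higher and 11 lower in culture (91.7% passed, against 68.5% of all probes), and 3 of the 24 had a bound only. Rasgrf1, an exchange factor of RAS, was well above background on 1 of 4 cultured arrays and all 6 sorted arrays, at least 3.56-fold lower in culture (adjusted p = 0.000136, limma). Its cultured arrays ranged from -7.25 to -3.92, and the call was lost with the FGF5-treated cultures against WT alone (log2 difference -2.10). Atp10a and Cdkn1c were 3.29-fold (adjusted p = 1.8e-05, limma) and 2.47-fold (adjusted p = 6.99e-05, limma) lower. Pon3 was at least 2.04-fold higher in culture (adjusted p = 0.000273, limma), Blcap 2.57-fold (adjusted p = 0.00129, limma) and Dhcr7, an enzyme of cholesterol synthesis, 2.48-fold higher (adjusted p = 1.03e-05, limma).

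Genes of other cells differed between the materials as well. Of 10 Sertoli cell genes, 6 were well above background on every cultured array and 7 on every sorted array, and their summed level was 3.01 and 3.08 with FGF5, 2.75 and 2.38 without it, 11.03, 7.22 and 8.18 on the arrays labelled WT, and 6.51, 8.94 and 9.35 on those labelled Fgf5-/-. The probe of Wt1 was the brightest in culture and that of Clu in sorted cells, and Amh and Fshr were well above background on no array. The 6 spermatid genes summed to between 1.64 and 2.17 on the cultured arrays and to 9.54, 8.98 and 7.29 (labelled WT) and 5.36, 9.54 and 17.1 (labelled Fgf5-/-) on the sorted arrays, with Spaca1 the brightest in culture and Tnp1 in sorted cells, and with Acrv1 well above background on no array.

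The 5 genes of differentiating spermatogonia, with Sohlh1 the brightest in culture and Stra8 in sorted cells, summed to between 63.7 and 87.1 on the cultured and between 122 and 145 on the sorted arrays. The 10 fibroblast genes, with Fn1 the brightest in both, summed to between 22.9 and 33.3 and between 28.3 and 35.5, with Lum, Col5a2 and Pdgfrb well above background on no cultured array. The 5 peritubular myoid genes, with Tagln the brightest in both, summed to between 1.41 and 2.08 in culture and between 0.74 and 1.01 in sorted cells. Of the Leydig, macrophage and endothelial lists, 2 of 5, 4 of 7 and 2 of 5 genes were well above background on every cultured array, and 2, 4 and 4 on every sorted array. Their summed levels were higher in culture, between 4.99 and 6.65 against 0.42 and 1.96 for the Leydig list (brightest Cyp17a1), between 4.02 and 4.89 against 1.20 and 2.25 for the macrophage list (brightest Csf1r), and between 8.07 and 9.67 against 2.39 and 4.65 for the endothelial list (brightest Kdr, with Emcn well above background on no array). The endothelial genes tested were called in both directions. Kdr was 2.69-fold and Pecam1 2.06-fold higher in culture (adjusted p = 0.000288 and 3.55e-05, limma), while Cdh5 was at least 5.105-fold and Tek at least 4.22-fold lower (adjusted p = 5.06e-06 and 8.11e-05, limma). Cdh5 and Tek entered the test only through the sorted arrays and could be called only as lower in culture. The 5 spermatocyte genes with a probe, with Sycp1 the brightest in culture and Sycp3 in sorted cells, summed to between 21.7 and 29.1 and between 20.3 and 24.6. The part of other cells, and of the stage of the germ cells, in the differences of the imprinted genes was not tested.

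The effect of FGF5 in culture was read from 2 arrays with and 2 without it. No probe passed an adjusted p of 0.05 in the limma fit (0 of 34606, 0%), among them the 32 imprinted genes tested, and 882 probes had an unadjusted p under 0.05. The median log2 difference with against without FGF5 was 0.02 over the 20 paternally expressed genes tested, -0.03 over the 11 maternally expressed genes and -0.03 over all probes tested. The arrays did not overlap for 7 of the 32 genes, against 22.7% of all probes tested.

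Of these 7, Mest, Gnas, Dio3 and Asb4 differed by at least 0.3 on the log2 scale. Mest gave -0.06 and 0.11 with FGF5 and -0.41 and -1.35 without it, a difference of 0.91, 1.88-fold higher with FGF5, and its other 2 probes did not overlap either (log2 difference 0.97 for one, and at least 1.80-fold higher for the other, which was well above background on 3 of 4 arrays). Gnas gave 2.63 and 2.86 against 2.46 and 2.30, a difference of 0.36. Both lay higher with FGF5, Mest with a wide gap between its 2 arrays without FGF5. Dio3 gave -2.31 and -2.65 against -2.05 and -1.75, and Asb4, a component of ubiquitin ligases, gave -2.88 and -3.04 against -2.76 and -2.49, so both lay lower with FGF5 (log2 differences -0.58 and -0.33). All 4 had an adjusted p of 1 (limma). Leaving out 1 array gave 0.44 to 1.38 for Mest, 0.25 to 0.48 for Gnas and -0.47 to -0.20 for Asb4.

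For the other genes always read, with against without FGF5, the log2 differences were 0.13 for Igf2, 0.46 for H19, 0.0025 for Igf2r, 0.20 for Dlk1, 0.13 for Meg3, 0.07 for Peg3 and -0.32 for Snrpn. By these brightest probes the arrays with and without FGF5 overlapped for each of them, and leaving out 1 array turned the sign of all 7 (H19 from -0.28 to 1.20 and Dlk1 from -0.18 to 0.58). The other probe of Peg3, well above background on 3 of the 4 arrays, gave -4.19 and -5.05 with FGF5 and -3.45 and -2.10 without it. Its arrays did not overlap and it was at least 3.34-fold lower with FGF5 without passing the test (unadjusted p = 0.0225, adjusted p = 1, limma). A dim probe of Meg3, well above background on 2 of the 4 arrays, did not overlap either, at -4.28 and -4.36 with FGF5 and -5.33 and -4.85 without it (at least 1.44-fold higher with FGF5, unadjusted p = 0.0197, adjusted p = 1, limma). Grb10 was not well above background on any cultured array. None of the lists of imprint guardians, other imprinted genes or IGF partners had a gene past the threshold.

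Within the culture, arrays of the same condition differed from each other more than the conditions did for several imprinted genes. This was seen after the values were read, and the labels number the arrays of each condition 1 and 2 without saying that equal numbers share a culture. Slc38a4 was 2.34 higher on array 1 than on array 2 with FGF5 and 2.15 higher without it, on the log2 scale. Peg10 was 2.45 and 1.64 higher on array 1 and Phlda2 2.16 and 1.51 higher. H19 went the other way, with log2 differences of array 1 minus array 2 of -1.48 and -1.27. Together with Sgce, 5 of the 32 genes had both arrays numbered 1 clear of both arrays numbered 2 with a mean difference of at least 2-fold, 4 of them higher on arrays 1 and H19 higher on arrays 2.

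Of all probes tested in culture, 3.65% met the same description, 708 higher on arrays 1 and 554 on arrays 2. The fibroblast gene Col1a1 gave 3.49 and 3.71 on arrays 1 and 1.56 and 2.02 on arrays 2, and the whole fibroblast list summed to 30.1 and 33.3 against 22.9 and 24.1. The Leydig list was also higher on arrays 1 (6.65 and 6.56 against 4.99 and 5.18). So was the spermatid list (2.17 and 2.05 against 1.71 and 1.64). Higher on arrays 2 were spermatocytes (25.9 and 29.1 against 21.7 and 22.4) and differentiating spermatogonia (72.3 and 87.1 against 63.7 and 69.9). Spermatogonia also summed higher there (188.3 and 188.4 against 183.0 and 182.5), and the other lists overlapped. The part of these in the differences between the arrays was not tested.

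**Figure D4:**
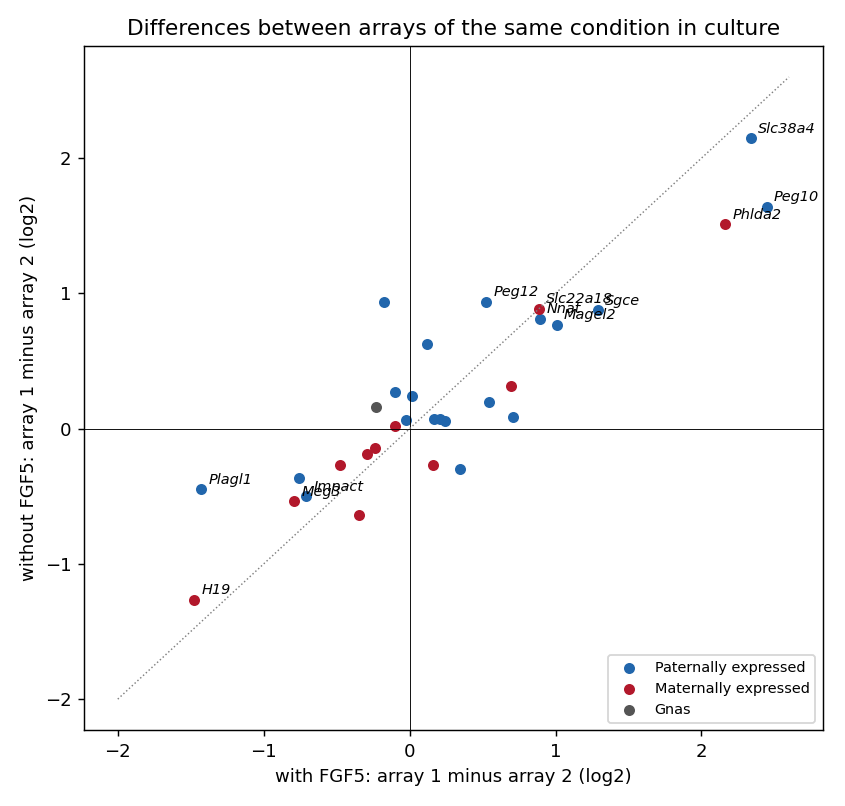
Difference between the 2 arrays of the same condition in culture for the 32 imprinted genes tested, with FGF5 on the x axis and without FGF5 on the y axis (log2, array 1 minus array 2). Each point is 1 gene, blue for paternally and red for maternally expressed genes, and the dotted line marks equal differences. Slc38a4, Peg10 and Phlda2 lie at the upper right and H19 at the lower left, so the difference between the arrays had the same sign in both conditions for these genes, which were chosen for it.

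The absence of FGF5 in the testis was read from the 3 arrays labelled Fgf5-/- against the 3 labelled WT. No probe passed an adjusted p of 0.05 in the limma fit (0 of 30272, 0%), among them the 32 imprinted genes tested, and 2055 probes had an unadjusted p under 0.05, 4 of the imprinted genes included. The median log2 difference was 0.02 over the 19 paternally expressed genes tested, -0.05 over the 12 maternally expressed genes and -0.03 over all probes tested. The arrays did not overlap for 9 of the 32 genes, against 16.2% of all probes tested.

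Of these 9, Mest, Plagl1, Gnas, H19 and Impact differed by at least 0.3 on the log2 scale. Mest gave 1.44, 1.54 and 1.49 on the arrays labelled WT and 0.98, 1.21 and 1.19 on those labelled Fgf5-/-. Plagl1 gave 0.90, 1.105 and 1.12 against 0.79, 0.64 and 0.51. Mest and Plagl1 lay lower on every array labelled Fgf5-/-, with log2 differences of -0.36 and -0.39 (adjusted p = 0.728 for both, limma). Gnas gave 3.66, 3.82 and 3.86 against 3.15, 3.51 and 3.46, and H19 gave 4.82, 4.74 and 4.77 against 4.08, 4.61 and 4.61. Both lay lower on every array labelled Fgf5-/-, Gnas with a log2 difference of -0.41 (adjusted p = 0.728, limma) and H19 of -0.34 (adjusted p = 0.738, limma), and replicate 1 was the lowest in both. Impact, a regulator of the kinase GCN2, gave 1.31, 1.40 and 1.58 against 1.85, 1.71 and 1.79 and lay 0.35 higher (adjusted p = 0.728, limma).

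Without the array labelled Fgf5-/- replicate 1 the log2 differences were -0.29 for Mest, -0.29 for Gnas and -0.17 for H19, all short of 0.3 in size, and -0.46 for Plagl1 and 0.32 for Impact. The other probes of these genes were read as well. Those of Mest gave -0.32 with overlapping arrays and -0.0021, and those of Plagl1 gave -0.34 with no overlap, 0.011 and -0.018. The other probe of Impact gave 0.08 with overlapping arrays. Those of Gnas gave -0.40, -0.22 and -0.16, all with overlap, and the 5 other tested probes of H19 gave -0.28 to -0.04, of which 3 did not overlap. For the remaining genes always read, labelled Fgf5-/- against WT, the log2 differences were -0.29 for Igf2, -0.04 for Igf2r, -0.21 for Dlk1, -0.06 for Meg3, 0.15 for Peg3, 0.13 for Snrpn and 0.11 for Grb10, and their arrays overlapped. Leaving out 1 array turned the sign of Igf2r, Dlk1, Meg3, Peg3 and Grb10. Igf2 was spread widely over the arrays labelled WT (-1.40, -0.32 and -0.45), so the size of its difference depends on which of them are kept. No gene of the other 3 lists passed.

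**Figure D5:**
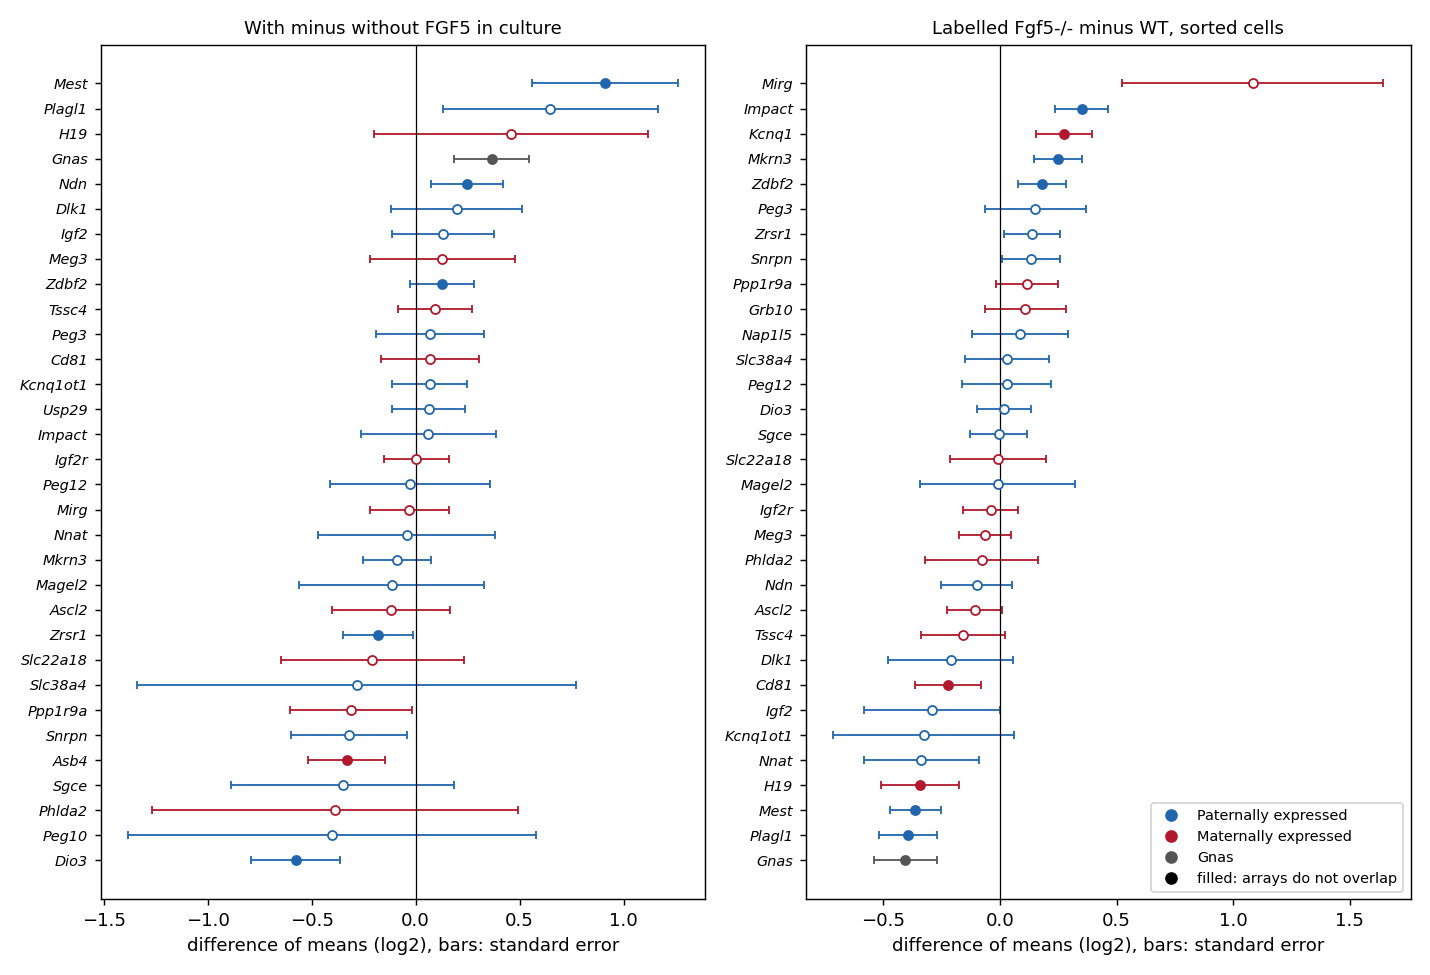
Difference with against without FGF5 in culture (left) and labelled Fgf5-/- against WT in sorted cells (right) for the 32 imprinted genes tested in each (x axis, log2), with the standard error of the limma fit as bars. Filled symbols mark genes whose arrays do not overlap between the groups, blue paternally and red maternally expressed genes. No gene passed an adjusted p of 0.05 in either panel, and 7 genes are filled on the left and 9 on the right.

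The array labelled Fgf5-/- replicate 1 stood apart from the other sorted arrays for several imprinted genes and for genes of other cells. Dlk1 gave 3.00 there and 3.64 to 4.06 on the other 5 sorted arrays, chosen here after the values were seen. Cyp17a1 of Leydig cells gave -1.64 there and 0.74, 0.56, 0.88, 0.53 and 0.10 on the others, and Csf1r of macrophages -1.87 there and -0.33, 0.02, 0.20, 0.17 and -0.12 on the others. Without this array, the log2 difference between the labels was 0.08 for Dlk1 and 0.0031 for Meg3, against -0.21 and -0.06 with it. The summed level of the 5 Leydig cell genes with a probe was 0.42 on this array and 1.17 to 1.96 on the other sorted arrays, and that of the 7 macrophage genes was 1.20 there and 1.76 to 2.25 on the others. The sums of other lists were also lowest on this array, at 192 against 216 to 230 for spermatogonia, 2.39 against 3.69 to 4.65 for endothelial cells, 6.51 against 7.22 to 11.03 for Sertoli cells, 5.36 against 7.29 to 17.1 for spermatids and, by a narrow margin, 0.74 against 0.75 to 1.01 for peritubular myoid cells. The spermatocyte sum was the highest there (24.6 against 20.3 to 22.6), and those of fibroblasts and differentiating spermatogonia lay within the range of the other arrays. The array had the highest share of probes well above background, 65.9% against 55.3% to 61.6% on the other sorted arrays. The part of any of these in the values of the imprinted genes was not tested.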

How the data were processed

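The authors deposited the scanner output of 10 Agilent 1-colour 8x60K arrays, in which each spot has a background-subtracted intensity on a linear scale (Feature Extraction 10.7.1.1 in the file headers, 10.7.3.1 in the submitters' processing notes). They also deposited a table of log2 values, made per the methods in GeneSpring with a floor of 1, a shift by the 75th percentile and no baseline. This table differs from the log2 intensities computed here by a constant per array (medians of the difference between 0.13 and 0.20), so its scale and direction are known and it is not centred by gene. The medians of its columns lay between -3.74 and -3.10.

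The floor of 1 was reached by 0 of the 59305 non-control spots on every array. The software's flags for uneven spots and population outliers removed 117 to 205 spots per array, repeated spots were averaged as log2, and no spot was saturated. A probe counted as well above background when most of its kept spots did. Gene names and mm9 positions are those of the scanner files. Fits used limma 3.58.1 in R 4.3.3, tested on simulated data, two-sided, with Benjamini-Hochberg adjustment. Testing required that all arrays of 1 of the groups compared (for cultured against sorted, of 1 material) were well above background for the probe. The labels and design text describe separate experiments, but not how many animals each sample pooled.

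The members and lists were chosen with earlier results of these data known. Genes are named with all values when they passed in cultured against sorted with a log2 difference of at least 2 or were above background in 1 material only, when their arrays did not overlap and differed by at least 0.3 in another comparison, or when on a fixed list (Igf2, H19, Igf2r, Dlk1, Meg3, Peg3, Mest, Snrpn, Grb10, Gnas); of other lists, the 3 largest changes each way. Alternatives were other scalings, backgrounds and filters, the authors' table, all probes of a gene, a trend, a replicate block and leaving out arrays.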

Additional observations from a re-analysis of the deposited data

Results flagged for a closer look

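Each imprinted gene well above background on every array of a material was checked for an array far from the rest, over the 4 cultured or the 6 sorted arrays, by setting the gap to the nearest array against the whole range. Of 64 such sets 5 had a gap above Dixon's critical value for that number of arrays, where chance gives about 1 in 20. In culture, Snrpn was -1.24 on the array with FGF5 numbered 2 and between -0.61 and -0.52 on the other 3 (gap over range 0.879).

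The other 4 sets all concern the array labelled Fgf5-/- replicate 1, which was the lowest of the 6 sorted arrays in each. Tssc4 was 3.01 there and 3.52 to 3.59 on the others (gap over range 0.87). Nnat was -2.53 there and -1.79 to -1.56 on the others (0.76). H19 was 4.08 there and 4.61 to 4.82 on the others (0.707), and Cd81 was 3.72 there and 4.08 to 4.24 on the others (0.698).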

How the results depend on the processing

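In both FGF5 comparisons 0 imprinted genes passed in limma under every alternative run (1 and 4 at an unadjusted p under 0.05 as reported). In cultured against sorted, the number that passed stayed between 23 and 32. Of all probes, labelled Fgf5-/- against WT, 0 to 6 passed when an array was left out (1 without WT replicate 2 or 3, 6 without Fgf5-/- replicate 1 and 5 without replicate 3); the cause was not tested. With the replicate number as a block, 0 probes passed in either FGF5 comparison (2481 and 1562 at an unadjusted p under 0.05). Same-numbered arrays deviated together in culture (correlation over probes 0.64) but not in sorted cells (-0.42, -0.16 and -0.15). The sorted arrays cannot show whether the cultures were paired. As the labels do not say that equal numbers share a culture, the main fit did not take the numbers as pairs. Leaving out 1 cultured array leaves the numbers unequal between the conditions, and the part of this in the ranges below was not tested.

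No difference that turned sign was called, and the cause was not tested. With against without FGF5, leaving out an array gave log2 differences of -0.14 to 0.41 for Igf2, -0.24 to 0.38 for Peg3, -0.67 to 0.034 for Snrpn, -0.18 to 0.58 for Dlk1, -0.28 to 1.20 for H19, -0.048 to 0.053 for Igf2r and -0.27 to 0.52 for Meg3. Peg3 was -0.89 by the mean of its probes, and Igf2r -0.0015 by the 75th percentile of bright probes and -0.0036 in the authors' table. Labelled Fgf5-/- against WT, leaving out an array gave -0.0044 to 0.38 for Peg3, -0.36 to 0.079 for Dlk1, -0.13 to 0.020 for Igf2r, -0.023 to 0.24 for Grb10 and -0.12 to 0.0031 for Meg3. Igf2r was 0.038 by quantile normalization, 0.018 by the 75th percentile of bright probes and 0.067 by normexp, and Meg3 0.16 by the mean of its probes.

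In cultured against sorted, Snrpn was 0.059 by the mean of its probes and 0.0039 without FGF5 against WT. With FGF5 against WT alone, Slc38a4 (1.95), Uhrf1 (-0.68), Rasgrf1 (-2.10) and Irs1 (-0.54) no longer passed, nor did Peg10 (1.90) without the cultured arrays numbered 1, left out after the data were seen. Paternally expressed genes lower in culture numbered 5 by the mean of probes, against 8. Dim probes limit the rest: 6 of the genes tested have only a bound in 1 material.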

Other observations

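The Dlk1 and Dio3 domain holds many probes for transcribed regions without a gene name, and they were read after the values of Mirg were seen. Between the outermost probes of the listed genes, chr12:110698502-111518851 of mm9, lay 109 probes of other names, of which 47 were tested in cultured against sorted cells. Of these 31 passed, 28 as higher and 3 as lower in culture, with a median log2 difference of 0.78. Many of the 28 were well above background on every cultured array but not on every sorted array. They entered the test only through culture and could be called only as higher, so the counts are no measure of direction. Over all probes tested 68.5% passed, 41.8% as higher in culture, with a median of 0.23. Dlk1, Meg3 and Dio3, by their brightest probes, were lower in culture. Dio3os, the antisense RNA of Dio3, did not pass (log2 difference 0.07, adjusted p = 0.902, limma).

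The 5 listed genes of the Prader-Willi cluster span 2481 kb by their probes. Inside that stretch 12 probes of other names were tested, and 9 passed, all as higher in culture, with a median log2 difference of 0.89, against 41.8% of all probes called higher and a median of 0.23. As in the Dlk1 and Dio3 domain, a probe that entered through culture alone could be called only as higher. Such probes were not counted apart here, so the counts are no measure of direction.

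Fgf5 itself was well above background on all 4 cultured arrays, at -2.89 and -3.92 with added FGF5 and -2.81 and -2.88 without it, and did not pass in that comparison (unadjusted p = 0.199, limma).

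Igfbp5 gave -1.89 and -0.74 with FGF5 and -2.67 and -3.17 without it, 3.04-fold higher with FGF5 (unadjusted p = 0.0173, adjusted p = 1, limma). Its cultured arrays did not overlap between the conditions, and the 6 sorted arrays lay above all of them, between -0.14 and 0.17.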
